A study of Mus musculus with 32 samples.

Results

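Cholesterol is built in the cytosol and endoplasmic reticulum from acetyl-CoA, by way of mevalonate, short isoprenoids and squalene, and then through a series of sterols. The transcription factor SREBP2, encoded by Srebf2, switches on most genes of this route when sterols in the membrane are low: SCAP then escorts it to the Golgi, where proteases release its active part, whereas INSIG proteins hold it back when sterols are plentiful. In the liver this route is known to follow the daily cycle of feeding. The 30 genes described here were chosen as members of this system by name. Each was found on the array through the RefSeq identifier of its probes, and the brightest probe stood for the gene. The members are 30 of 23109 genes tested. They comprise 5 enzymes of the mevalonate part, 4 of the isoprenoid part, 11 of the sterol part, 6 genes of SREBP2 control, and 4 genes of sterol transport, receptor turnover or related SREBP2 targets. All 30 passed the filter on dim probes and were well above background on all 32 arrays.

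Liver RNA came from 32 male wild-type C57BL/6 mice, 1 mouse per 1-colour Agilent array. The 16 mice under chronic jet lag (CJ) changed repeatedly, starting when they were 4 weeks old, between rooms with light onsets 8 h apart, and the 16 steady mice (NS) were not shifted. Both schedules had 12 h of light and 12 h of dark. All mice were housed singly. Sampling was at zeitgeber times (ZT, counted in hours from lights on) 2, 10 and 18, in 30-week-old and 12-week-old mice, so that each schedule and age had 2 mice at ZT2, 3 at ZT10 and 3 at ZT18. How long after a shift the CJ mice were sampled is not given in the sources used here, so ZT in CJ mice is used as labelled. Since whole liver was measured, fewer cells of a type and less RNA per cell cannot be told apart.

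The arrays had between 24183 and 32340 of 55681 probes well above background. The 8 hepatocyte markers averaged between 8.12 and 8.75 on the log2 scale used below on every array. They were lowest in the CJ pair at ZT2 and 30 weeks (8.124 and 8.136, against 8.407 and 8.415 in the NS pair). The 8 measured of 14 listed pancreatic acinar markers averaged between -2.73 and 3.79 in CJ mice and between -2.84 and 2.15 in NS mice, with a mean above 0 on 7 CJ and 3 NS arrays. The 10 measured of 11 listed skeletal muscle markers averaged between -4.28 and 3.54 in CJ mice and between -4.41 and 2.16 in NS mice. The 5 acute phase genes averaged 6.83 and 6.32 in the CJ pair at ZT2 and 30 weeks and 6.43 in CJ mouse 2 at ZT10 and 12 weeks, against 2.84 to 4.82 in the other 29 mice. Counts of called members that change without the arrays rich in acinar markers are given with those values, beside them or in the account of the processing alternatives. The group means of 5 clock genes (Dbp, Arntl, Nr1d1, Per2, Ciart) at ZT2, ZT10 and ZT18 also differed. They were 0.45, 0.77 and 0.64 in CJ and -1.13, 0.73 and -1.13 in NS mice at 30 weeks. At 12 weeks they were 0.03, 0.45 and 0.46 in CJ and -1.47, 0.88 and -1.04 in NS mice. At ZT2 and ZT18 the arrays of the schedules did not overlap at either age. The 5 clock genes were averaged on each array, so opposite changes of single genes would cancel in these means. The part of the clock state in the member differences was not tested.

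The promoters of members that were lower in CJ mice at both ages are shown where the RefSeq table (build GRCm38.p6) held a single entry for them. That of Hmgcs1, which passed the threshold given below at 30 weeks only, was added outside this rule. Each stretch is the 150 bases before the annotated start, 5′ to 3′ on the strand of the gene, with CCAAT boxes, read on either strand, and the sterol regulatory element TCACNCCAC in capitals.
Hmgcs1, chr13:119690201-119690350, plus strand: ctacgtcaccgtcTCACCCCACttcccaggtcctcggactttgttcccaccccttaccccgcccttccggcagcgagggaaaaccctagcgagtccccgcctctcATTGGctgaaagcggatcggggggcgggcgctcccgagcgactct
Mvd, chr8:122443423-122443572, minus strand: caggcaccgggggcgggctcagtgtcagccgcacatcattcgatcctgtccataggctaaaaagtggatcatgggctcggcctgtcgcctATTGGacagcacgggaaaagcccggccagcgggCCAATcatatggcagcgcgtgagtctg
Lss, chr10:76531455-76531604, plus strand: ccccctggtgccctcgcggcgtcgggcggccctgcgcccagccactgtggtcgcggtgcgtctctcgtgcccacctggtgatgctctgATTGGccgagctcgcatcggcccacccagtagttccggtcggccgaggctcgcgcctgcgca
Sc5d, chr9:42264301-42264450, minus strand: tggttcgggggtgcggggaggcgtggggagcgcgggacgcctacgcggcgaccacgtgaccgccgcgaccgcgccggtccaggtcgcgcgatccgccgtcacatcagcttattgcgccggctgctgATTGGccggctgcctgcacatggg
The CCAAT box, the sequence bound by NF-Y, a partner of SREBP proteins, was present in all 4 stretches, the sterol element in that of Hmgcs1 and an E-box, not capitalised, in that of Sc5d. The table matched 26 of the 30 members by symbol (Fdps, Fdft1, Sqle and Stard4 were not matched), with 32 promoter entries. In the 250 bases before the start, CCAAT on either strand was found in 21 of these 32 entries, against 33.8% of all 32851 entries in the table. GGGCGG, the GC box bound by SP1, was found in 24 of 32 member entries, against 32.7% of all entries. TCACNCCAC was found in 1 member entry, that of the added Hmgcs1, against 1.05% of all. CACGTG, the E-box bound by clock proteins among others, was found in 5, against 6.02% of all. The shares of all entries were not limited to genes tested here. A match describes letters in the window and does not show a bound site. Whether these elements had a part in the differences between schedules was not tested.

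The first comparison was between schedules at each age. In 30-week-old mice 17 of the 30 members were lower in CJ than in NS livers and 0 were higher, by the mean of the 3 times (limma with Benjamini-Hochberg adjustment over all genes, adjusted p under 0.05). Of all genes tested, 4.2% were lower. The median log2 difference (CJ minus NS) was -0.40 over the members and -0.01 over all genes tested. In 12-week-old mice 5 members were lower and 0 were higher, against 2.39% of all genes lower, and the medians were -0.23 for the members and 0.02 for all genes. The 5 were Mvd, Lss, Pmvk, Fdft1 and Sc5d, and all 5 were among the 17 of the older mice. Those were other animals, but all 12 groups share 1 error estimate per gene, so the calls at the ages are not independent. Without the 10 arrays rich in acinar markers, which leaves 4 of the 12 groups with 1 array each, assumed to vary like the others, 6 members were lower at 30 weeks and 1 at 12 weeks. The member medians were then -0.37 and -0.22, and 27 and 22 of the 30 members were negative, against 28 and 24 with all arrays. With the acinar and muscle marker levels as covariates the counts were 15 and 5.

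**Figure D1:**
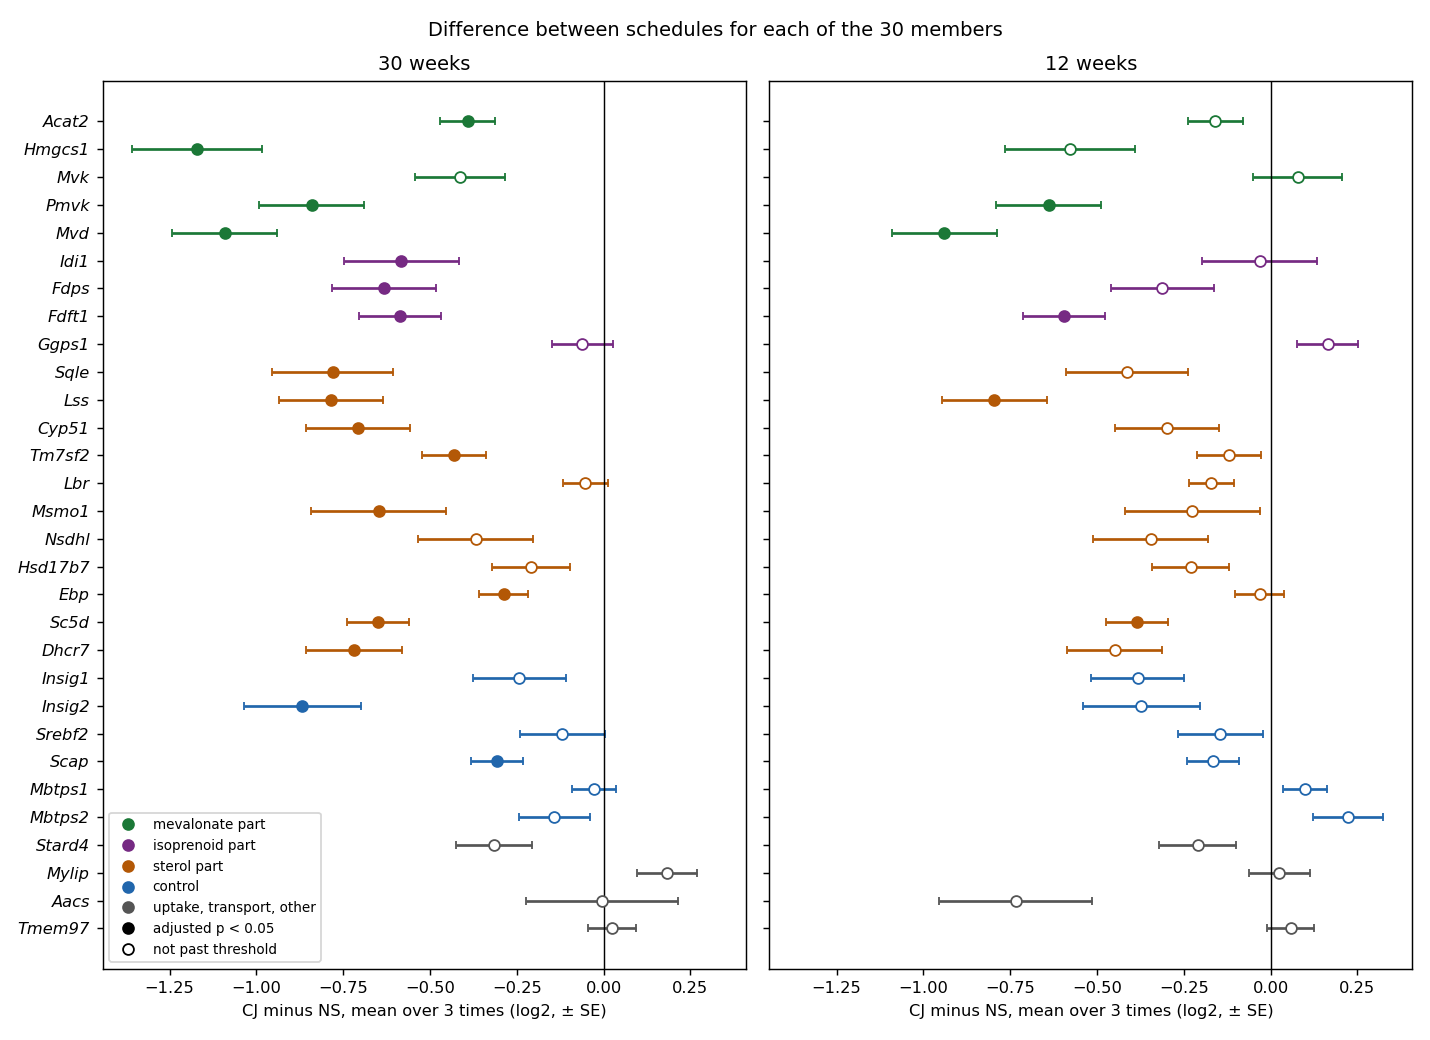
Difference between CJ and NS mice, as the mean over the 3 times, for each member in pathway order (30 weeks left, 12 weeks right; x axis, log2 difference; points, fitted differences; bars, SE; filled, adjusted p under 0.05). At 30 weeks 17 filled points lie left of 0, led by Hmgcs1 at -1.17 and Mvd at -1.09, and at 12 weeks 5 do.

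The mevalonate enzymes showed the largest differences. Hmgcs1, which joins acetyl-CoA to acetoacetyl-CoA in the cytosol, had levels (log2 signal relative to the 75th percentile of the array) of 6.63 and 5.73 at ZT2, 4.95, 4.70 and 5.93 at ZT10, and 4.87, 5.28 and 5.38 at ZT18 in 30-week-old CJ mice. NS mice of that age had 7.48 and 7.11 at ZT2, 7.04, 5.94 and 5.56 at ZT10, and 6.37, 7.00 and 6.46 at ZT18. Every CJ mouse was below every NS mouse at ZT2 and at ZT18, while the groups overlapped at ZT10. Averaged over times Hmgcs1 was -1.17 ± 0.19 in CJ relative to NS mice (log2 ± SE, n = 8 each), or 44.4% of the NS level (limma adjusted p = 0.000562). At 12 weeks its difference was -0.58 ± 0.19, which missed the threshold (limma adjusted p = 0.079). 

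Mvd, the decarboxylase that yields the first isoprenoid, was lower at both ages. At 30 weeks its levels in CJ mice were 2.20 and 1.90 at ZT2, 0.90, 0.27 and 1.32 at ZT10, and 1.25, 2.21 and 1.82 at ZT18. NS mice had 3.24 and 3.25, then 2.09, 1.30 and 1.34, and 2.76, 3.52 and 3.03 at the same times. The groups were apart at ZT2 and ZT18 and overlapped at ZT10 by 1 CJ mouse. At 12 weeks CJ mice had 2.55 and 2.60 at ZT2, 0.75, 1.25 and 0.86 at ZT10, and 1.05, 1.69 and 1.11 at ZT18. NS mice of 12 weeks had 3.07 and 2.97, then 1.86, 1.32 and 1.43, and 3.27, 2.97 and 2.97. Here all CJ mice lay below all NS mice at every time. The mean difference was -1.09 ± 0.15 at 30 weeks, 46.9% of the NS level (limma adjusted p = 0.000168), and -0.94 ± 0.15 at 12 weeks, 52.2% of the NS level (limma adjusted p = 0.00141). Mvd was called at both ages under each alternative setting and with each mouse left out.

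Pmvk, phosphomevalonate kinase, was -0.84 ± 0.15 at 30 weeks (limma adjusted p = 0.00155) and -0.64 ± 0.15 at 12 weeks (limma adjusted p = 0.0193). Its second probe gave -0.90 and -0.67. At 12 weeks its call was lost without NS mouse 1 at ZT2 (-0.50), and so was that of Sc5d (-0.33). At 30 weeks Pmvk had 5.74 and 5.10 at ZT2, 5.72, 5.22 and 6.02 at ZT10 and 5.93, 6.69 and 6.16 at ZT18 in CJ mice, against 6.86 and 6.85, 6.80, 5.89 and 5.97, and 6.48, 7.01 and 6.97 in NS mice. These groups were apart at ZT2 and overlapped at the later times. Acat2, the cytosolic thiolase at the start of the route, was lower at 30 weeks by a smaller step (-0.39 ± 0.08, limma adjusted p = 0.00434) and had -0.16 ± 0.08 at 12 weeks (limma adjusted p = 0.259). Mvk, mevalonate kinase, passed at neither age, with -0.41 ± 0.13 at 30 weeks (limma adjusted p = 0.059) and 0.08 ± 0.13 at 12 weeks (limma adjusted p = 0.78). In all, 4 of the 5 mevalonate genes were lower at 30 weeks and 2 at 12 weeks.

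Of the 4 isoprenoid genes, 3 were lower in CJ mice at 30 weeks and 1 at 12 weeks. Fdft1, squalene synthase, which commits isoprenoids to sterols, was lower at both ages, by -0.59 ± 0.12 at 30 weeks (limma adjusted p = 0.00422) and -0.60 ± 0.12 at 12 weeks (limma adjusted p = 0.00721). A much dimmer probe of Fdft1, well above background on 18 arrays, gave -0.44 ± 0.23 at 30 weeks and -0.11 ± 0.23 at 12 weeks. With the median over its probes the 12-week call of Fdft1 was lost. By the brightest probe its 12-week CJ levels were 4.37 and 4.10 at ZT2, 3.31, 3.04 and 2.99 at ZT10, and 3.23, 3.17 and 3.17 at ZT18, against 4.60 and 4.22, 3.87, 3.83 and 3.82, and 4.08, 3.99 and 4.13 in NS mice. CJ and NS mice were thus apart at ZT10 and ZT18 and overlapped at ZT2. Fdps, which makes farnesyl diphosphate, and Idi1, the isomerase before it, were lower at 30 weeks (-0.63 ± 0.15 and -0.58 ± 0.17). The Idi1 call was lost in 9 of the 32 fits that left out 1 mouse, the Fdps call without CJ mouse 2 at ZT2. Ggps1, which leads from farnesyl diphosphate to geranylgeranyl groups for proteins and not to sterols, had -0.06 ± 0.09 at 30 weeks and 0.16 ± 0.09 at 12 weeks, neither past the threshold.

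Among the 11 sterol enzymes 8 were lower in CJ mice at 30 weeks and 2 at 12 weeks. Sc5d, a sterol desaturase late in the route, was lower at both ages. Its 30-week CJ levels were 5.96 and 5.65 at ZT2, 5.64, 5.51 and 6.01 at ZT10, and 6.15, 6.41 and 6.16 at ZT18. NS mice had 6.96 and 6.70, then 6.83, 6.12 and 6.44, and 6.42, 6.51 and 6.36. All CJ mice lay below all NS mice at ZT2 and ZT10, while at ZT18 the ranges overlapped. Its difference was -0.65 ± 0.09 at 30 weeks (limma adjusted p = 0.000168) and -0.38 ± 0.09 at 12 weeks (limma adjusted p = 0.0179). Lss, the cyclase that makes lanosterol, had 1.97 and 1.68 at ZT2, 1.03, 1.15 and 0.69 at ZT10 and 1.06, 0.91 and 0.85 at ZT18 in 12-week-old CJ mice, against 2.70 and 2.31, 1.48, 1.48 and 1.26, and 2.05, 2.21 and 2.19 in NS mice. All CJ mice of that age lay below all NS mice at each time. Lss was -0.79 ± 0.15 at 30 weeks (limma adjusted p = 0.00268) and -0.80 ± 0.15 at 12 weeks (limma adjusted p = 0.00491). 

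The other sterol genes lower at 30 weeks were Sqle, squalene epoxidase (-0.78 ± 0.18), Dhcr7, a reductase of the last steps (-0.72 ± 0.14), Cyp51, the lanosterol demethylase (-0.71 ± 0.15), Msmo1, the methylsterol oxidase (-0.65 ± 0.19), Tm7sf2, a sterol reductase (-0.43 ± 0.09), and Ebp, a sterol isomerase (-0.29 ± 0.07). Their adjusted p in limma ran from 0.00265 for Dhcr7 to 0.0494 for Msmo1, whose call was lost in 27 of the 32 fits that left out 1 mouse. The Sqle call was lost without CJ mouse 2 or NS mouse 1 at ZT2, and the Ebp call without NS mouse 2 at ZT2. Nsdhl, Hsd17b7 and Lbr did not pass at either age. Lbr, which also anchors chromatin at the nuclear lamina and shares its reductase activity with Tm7sf2, had -0.05 ± 0.06 at 30 weeks and -0.17 ± 0.06 at 12 weeks.

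Of the 6 genes of SREBP2 control, 2 were lower in CJ mice at 30 weeks and 0 at 12 weeks. Insig2, the INSIG gene that in mouse liver has a transcript repressed by insulin, was lower at 30 weeks, by -0.87 ± 0.17 (54.8% of the NS level, limma adjusted p = 0.0032), and its second probe gave -0.82. Scap was lower at 30 weeks by -0.31 ± 0.07 (limma adjusted p = 0.0144), a call lost without NS mouse 1 at ZT2. At 12 weeks Insig2 had -0.37 ± 0.17 and Scap -0.17 ± 0.07, neither past the threshold. Insig1, itself an SREBP2 target, had -0.24 ± 0.13 at 30 weeks (limma adjusted p = 0.34) and -0.38 ± 0.13 at 12 weeks (limma adjusted p = 0.104). Srebf2 itself had -0.12 ± 0.12 at 30 weeks (limma adjusted p = 0.679) and -0.14 ± 0.12 at 12 weeks (limma adjusted p = 0.543), and a dimmer probe of it gave 0.16 and -0.19. Mbtps1 and Mbtps2, which encode the Golgi proteases, had -0.03 ± 0.06 and -0.14 ± 0.10 at 30 weeks and 0.10 ± 0.06 and 0.22 ± 0.10 at 12 weeks, and none of the 4 passed. The arrays measured mRNA and so do not show how much SREBP2 protein was processed.

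None of the 4 transport, receptor turnover and related genes passed in the means over times at either age. Stard4, a sterol carrier, had -0.32 ± 0.11 at 30 weeks (limma adjusted p = 0.0949) and -0.21 ± 0.11 at 12 weeks. Mylip, a ubiquitin ligase for lipoprotein receptors that is induced by sterols through LXR, had 0.18 ± 0.09 and 0.03 ± 0.09. Tmem97, a sterol-regulated membrane protein, had 0.02 ± 0.07 and 0.06 ± 0.07. Aacs, which activates acetoacetate for lipid synthesis, had -0.00 ± 0.22 at 30 weeks and -0.73 ± 0.22 at 12 weeks (limma adjusted p = 0.057).

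**Figure D2:**
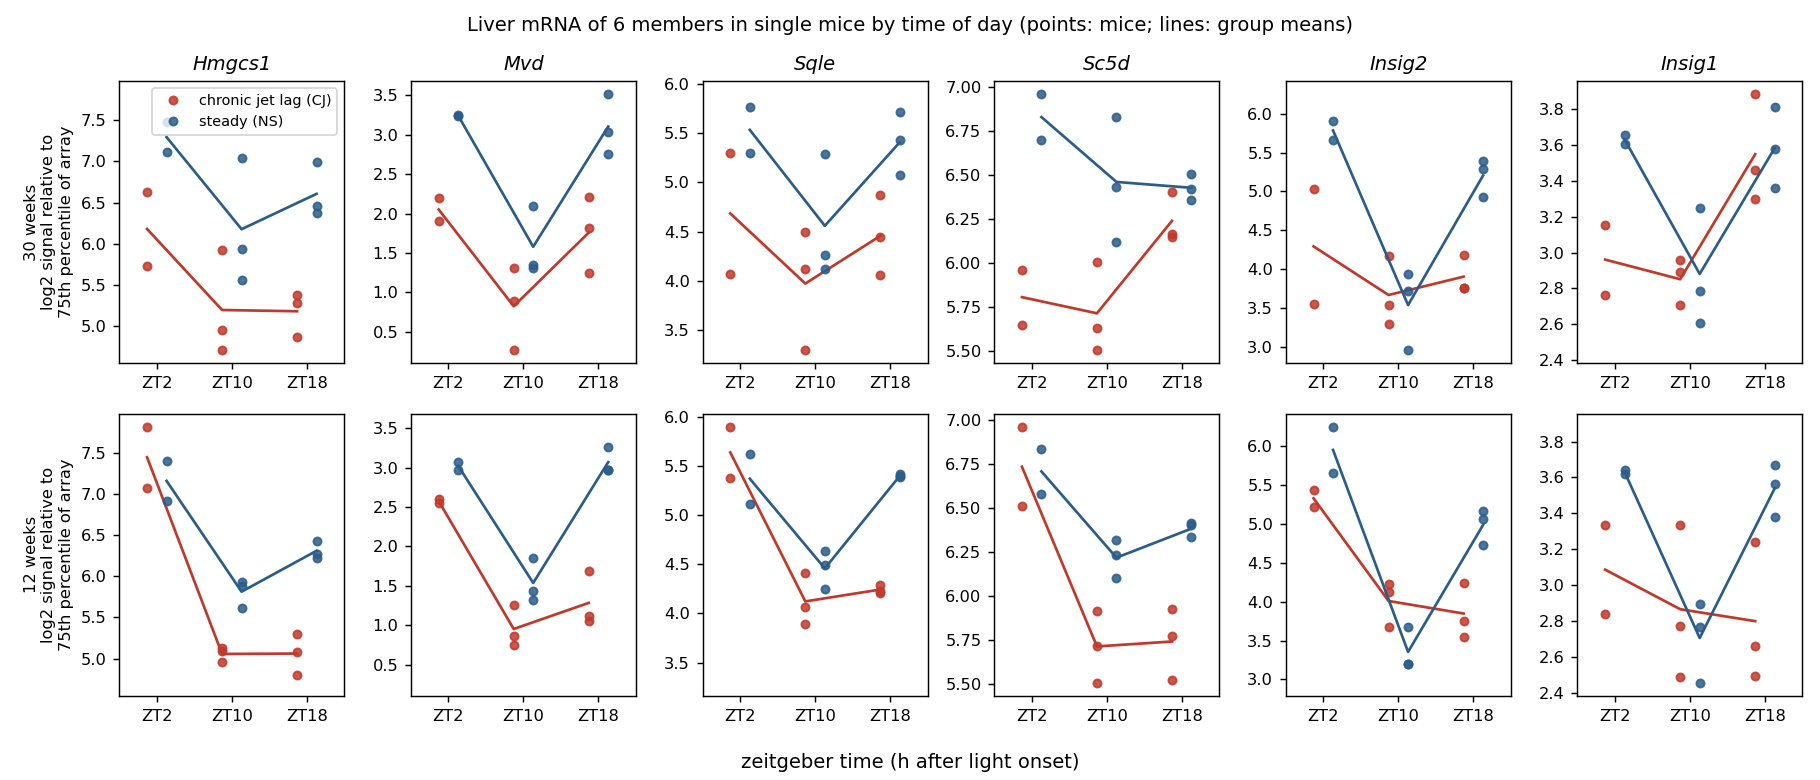
Levels of 6 members in single mice (y axis, log2 signal relative to the 75th percentile of the array; x axis, ZT; red, CJ; blue, NS; lines join group means; 30 weeks above, 12 weeks below). For Mvd all CJ points lie below the NS points at each time at 12 weeks, and Hmgcs1 in CJ mice lies at 5.08, 5.30 and 4.80 at ZT18 and 12 weeks, against 6.43, 6.28 and 6.23 in NS mice.

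The second comparison took each time of day alone. At ZT18, in the dark phase, 6 members were lower in CJ mice at 30 weeks and 8 at 12 weeks, and 0 were higher. Of all genes 1.83% and 1.81% were lower. Without the arrays rich in acinar markers 1 member was called at each age, and the medians were -0.40 at 30 weeks and -0.54 at 12 weeks. The 12-week count was 2 with slide as a fixed block and 2 with marker covariates. Hmgcs1 led at 30 weeks, with -1.58 ± 0.32 (33.4% of the NS level, limma adjusted p = 0.00652), and Mvd at 12 weeks, with -1.76 ± 0.25 (29.6%, limma adjusted p = 0.00036). Hmgcs1, Mvd, Fdft1, Sqle and Insig2 were called at both ages, 5 of the 6 at 30 weeks and 5 of the 8 at 12 weeks. Acat2 completed the list at 30 weeks, and Pmvk (-1.27 ± 0.26), Lss and Dhcr7 that at 12 weeks. Mvd kept its call without any 1 mouse at both ages, as Pmvk did at 12 weeks. The other calls were lost in 1 to 24 of 32 such fits, and the 12-week calls of Hmgcs1 and Sqle in 24 and 23.

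At ZT18 and 12 weeks Sqle had 4.21, 4.29 and 4.23 in CJ mice, against 5.41, 5.40 and 5.39 in NS mice. Pmvk had 5.52, 5.73 and 5.13 in CJ mice, against 6.88, 6.83 and 6.68 in NS mice. In Sqle the 3 mice of each group lay close together. The CJ mice were more spread in Pmvk (SD 0.31, against 0.10 in NS mice). In both genes the groups did not overlap. Insig2 had 4.19, 3.76 and 3.76 in CJ mice and 5.40, 4.92 and 5.30 in NS mice of 30 weeks, and 3.75, 3.55 and 4.25 in CJ mice and 4.73, 5.07 and 5.17 in NS mice of 12 weeks. Its groups did not overlap at either age. At 30 weeks 6 of the 30 members had a difference above 0 at ZT18. Of these Aacs had the largest, with 5.24, 6.08 and 5.66 in CJ mice above 4.44, 4.53 and 4.51 in NS mice, but its difference of 0.94 ± 0.37 missed the threshold (limma adjusted p = 0.181).

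ZT2 falls early in the light phase. In 30-week-old mice 28 of 30 members had a difference below 0, with a median difference of -0.66, and Pmvk (-1.33 ± 0.32, limma adjusted p = 0.0384) and Sc5d (-1.01 ± 0.19, limma adjusted p = 0.00671) passed, against 1.37% of all genes called. In 12-week-old mice 13 members had a difference below 0 and 17 above 0, the median was 0.07, and 0 passed (2 at unadjusted p under 0.05), against 0.251% of all genes. That balance turned with the scaling: 19 members were below 0 and 11 above with normexp (median -0.06), 15 and 15 after quantile normalization (-0.03), and 18 and 10 of 28 in the deposited values (-0.11). The CJ pair at 30 weeks was the pair with high acute phase genes, and its own mice differed: Sqle had 5.30 in mouse 1 and 4.07 in mouse 2, Idi1 6.03 and 4.69, and Aacs 4.66 and 2.78. The part of the acute phase state in these levels was not tested. Without all ZT2 mice, 10 members were lower at 30 weeks and 10 at 12 weeks in the mean of the remaining times. At ZT10, late in the light phase, when NS levels of most members were lowest, Sc5d (-0.66 ± 0.15) and Scap (-0.53 ± 0.13) passed at 30 weeks, where 0.701% of all genes were called. These ZT10 calls were lost in 15 (Sc5d) and 23 (Scap) of the 32 fits that left out 1 mouse. They were also lost in 5 and 9 of 10 other settings. The ZT2 calls of Pmvk and Sc5d were lost in 7 and 2 of the 32 fits. Without the arrays rich in acinar markers 1 member passed at ZT2 and 0 at ZT10 at 30 weeks. At 12 weeks 0 members passed at ZT10 (8 at unadjusted p under 0.05), against 1.78% of all genes. In that comparison 2 of 3 CJ arrays and 0 of 3 NS arrays were rich in acinar markers. Calls over all genes went from 412 to 6 with the marker covariates.

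**Figure D3:**
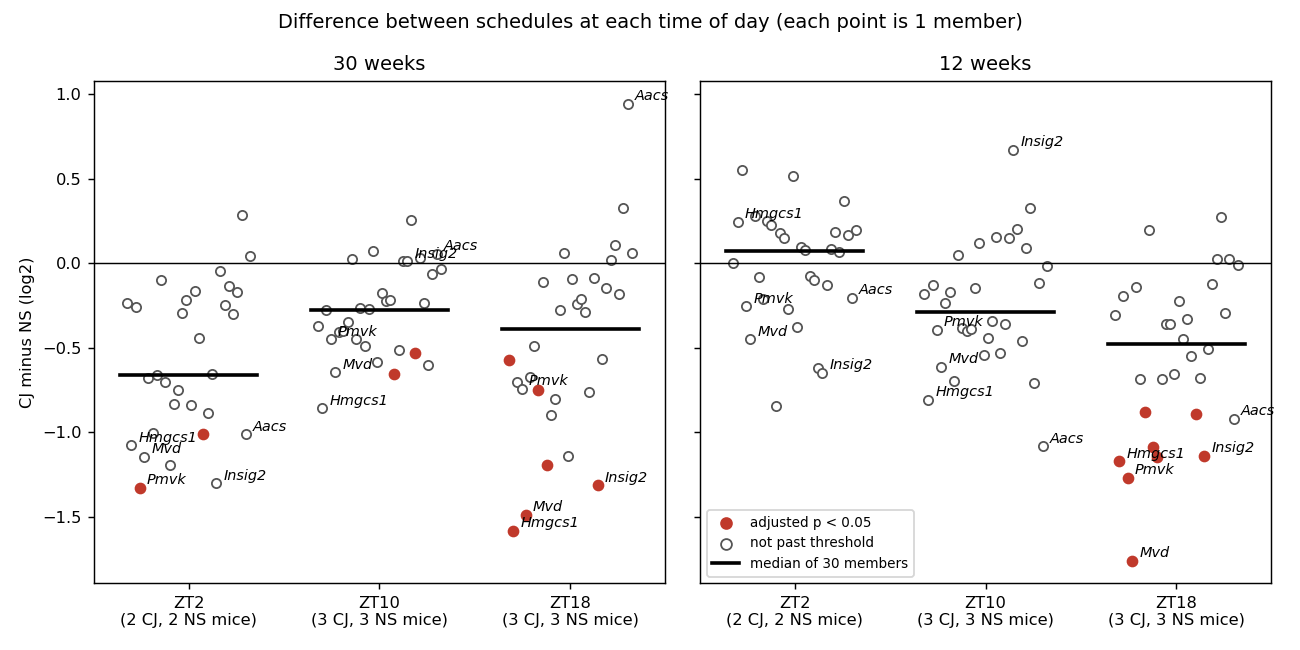
Difference between CJ and NS mice at each time (y axis, log2; each point is 1 member; filled, adjusted p under 0.05; bar, median of the 30 members; 30 weeks left, 12 weeks right). The medians at ZT2, ZT10 and ZT18 are -0.66, -0.27 and -0.39 at 30 weeks and 0.07 (-0.06 with normexp), -0.29 and -0.48 at 12 weeks.

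Members whose CJ mice all lay below all NS mice were also counted. At 30 weeks they were 22 at ZT2, 4 at ZT10 and 12 at ZT18, where 29.9%, 8.93% and 10% of all genes did so. At 12 weeks they were 5, 12 and 20, where 22.8%, 9.32% and 10.5% of all genes did so. At ZT2, with 2 mice against 2, such separation is common among all genes. The slides on which the arrays were hybridised held a CJ and an NS mouse of the same time and age in 4 cases. Within these pairs 21 of 30 members (30 weeks) and 23 of 30 (12 weeks) were lower in the CJ mouse at ZT10, and 22 and 25 at ZT18. The median member differences were -0.16 and -0.14 at ZT10 and -0.42 and -0.35 at ZT18. Over all genes the medians were 0.014 and 0.066 at ZT10 and 0.015 and 0.047 at ZT18. Each pair sets 1 mouse against 1, so the members in it are not replicates. The share of all genes lower in these pairs was not counted. Mvd differed by -0.41 and -0.69 in the ZT10 pairs and by -1.70 and -1.58 in the ZT18 pairs.

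The third comparison was the course over the day within each schedule and age. In NS mice 5 members varied at 30 weeks and 8 at 12 weeks, among 11.2% and 17.5% of all genes. In CJ mice 3 varied at 30 weeks and 12 at 12 weeks, among 3.67% and 5.63% of all genes. A range here is the distance on the log2 scale between the fitted means of the highest and the lowest time. Mvd varied in all 4 courses, with ranges of 1.22 in CJ and 1.71 in NS mice at 30 weeks and 1.57 in CJ and 1.41 in NS mice at 12 weeks, always highest at ZT2 and lowest at ZT10.

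In steady mice most members had the same low point. Of the 30 members, 22 had their lowest NS mean at ZT10 at 30 weeks and 22 at 12 weeks. Such counts of high and low times were not made for all genes. Insig2 had the largest NS range, 2.13 at 30 weeks (limma adjusted p = 0.000177) and 2.63 at 12 weeks (limma adjusted p = 1.59e-05). In NS mice of 30 weeks its levels were 5.90 and 5.67 at ZT2, 3.72, 3.93 and 2.95 at ZT10, and 5.40, 4.92 and 5.30 at ZT18. In NS mice of 12 weeks they were 6.26 and 5.65 at ZT2, 3.20, 3.67 and 3.20 at ZT10, and 4.73, 5.07 and 5.17 at ZT18, and at both ages the 3 times did not overlap. Lss (1.16 and 1.15) also varied at both ages, Sqle (1.12) at 30 weeks, and Hmgcs1, Pmvk (0.94) and Lbr (0.60) at 12 weeks. Srebf2 varied in NS mice at 30 weeks (0.97, limma adjusted p = 0.00654), with -0.67 and -0.94 at ZT2, -1.37, -2.10 and -1.62 at ZT10 and -0.79, -1.06 and -0.47 at ZT18. At 12 weeks Insig1 varied in NS mice by 0.97 (limma adjusted p = 0.0157), with 3.64 and 3.62 at ZT2, 2.90, 2.46 and 2.77 at ZT10 and 3.67, 3.57 and 3.38 at ZT18. Stard4 ran the other way and was highest at ZT10 (4.23, 4.39 and 4.23), against 3.76 and 3.45 at ZT2.

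In NS mice of 12 weeks 20 members were highest at ZT2. In 12-week-old CJ mice 26 of 30 members were highest at ZT2, among them all 12 called, and 17 were lowest at ZT18. All 5 mevalonate genes varied. Hmgcs1 had the largest range, 2.36 (limma adjusted p = 0.000329), with 7.07 and 7.82 at ZT2, 5.13, 4.96 and 5.09 at ZT10 and 5.08, 5.30 and 4.80 at ZT18. Its NS course of the same age ranged over 1.28, with 7.41 and 6.92, then 5.62, 5.94 and 5.89, and 6.43, 6.28 and 6.23. Both schedules were thus high at ZT2, and at ZT10 and ZT18 all CJ mice lay below all NS mice. Sqle (1.40), Insig2 (1.38), Cyp51 (1.29), Dhcr7 (1.15), Pmvk (1.11), Mvk (1.08), Fdft1 (1.04), Sc5d (0.98), Acat2 (0.67) and Scap (0.60) also varied there, with adjusted p in limma from 0.00141 for Sc5d to 0.0354 for Pmvk. This count rests on the CJ pair at ZT2: it was 3 without mouse 1 and 3 without mouse 2 of the pair, and 1 without the arrays rich in acinar markers.

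At 30 weeks the high point of the members was split in both schedules, with 16 highest at ZT2 and 11 at ZT18 in NS mice. In the CJ course 14 were highest at ZT2 and 14 at ZT18. Aacs had the largest range, 1.88 (limma adjusted p = 0.0309), with 4.66 and 2.78 at ZT2, 5.10, 4.22 and 4.96 at ZT10 and 5.24, 6.08 and 5.66 at ZT18, and mouse 2 at ZT2 was the lowest. Acat2 ranged over 0.60 (limma adjusted p = 0.0436). No member was called in this course without mouse 2 at ZT2, and 1 was called without mouse 2 or without mouse 3 at ZT18. The NS count at 30 weeks was 11 without mouse 1 and 2 without mouse 2 at ZT10, and 8 without CJ mouse 3 at ZT10. The NS count at 12 weeks was 5 without mouse 1 at ZT2 and 4 without either mouse 1 or mouse 3 at ZT10.

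**Figure D4:**
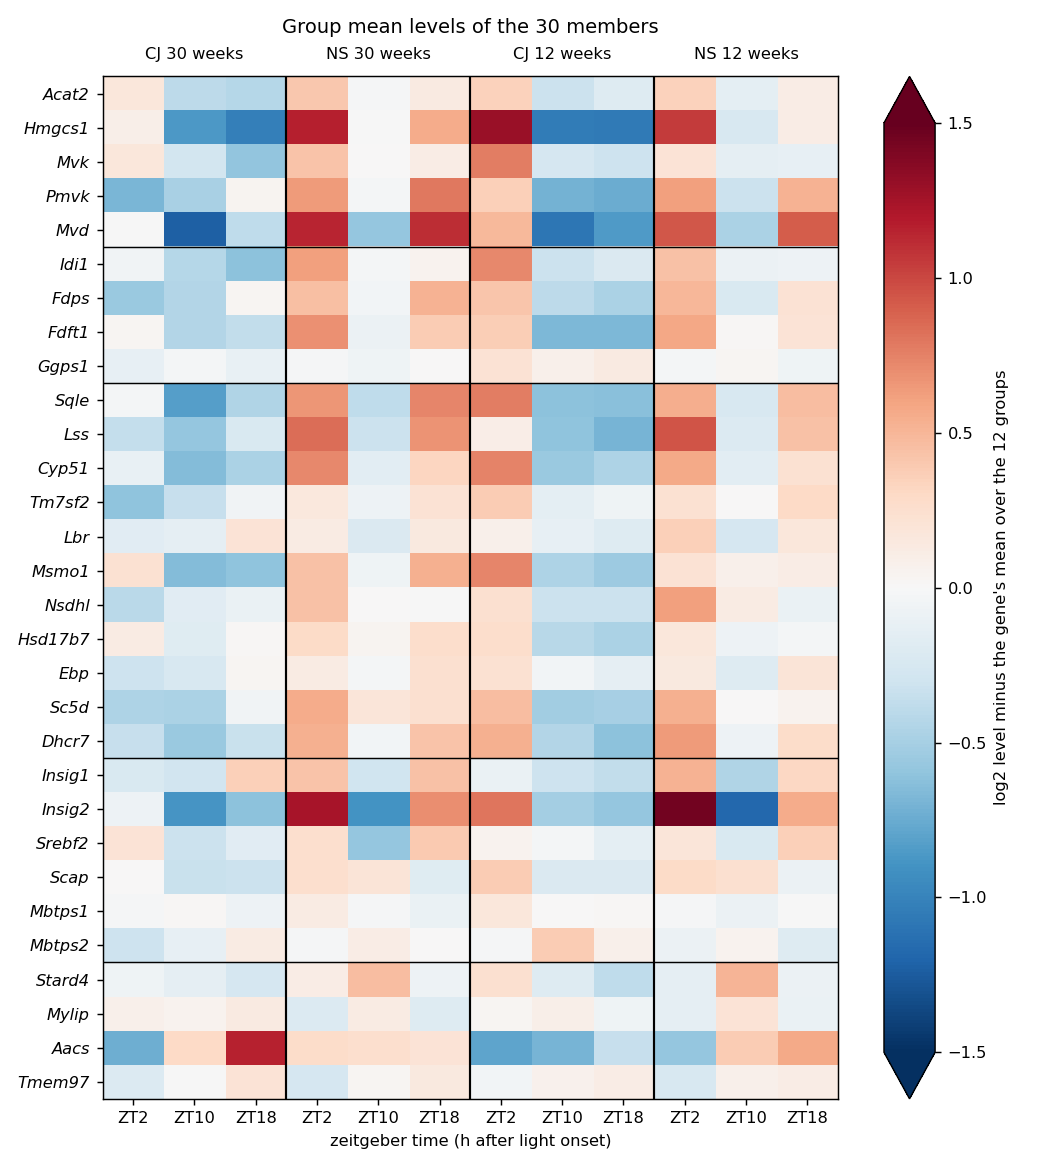
Fitted group means of the 30 members (rows, in pathway order, lines part the roles) in the 12 groups (columns), each as the log2 level minus the mean of the gene over the groups. Steady mice are high at ZT2 and low at ZT10 for most rows, and CJ mice of 12 weeks are low at both ZT10 and ZT18.

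Taken over members, the median of these centred levels in CJ mice was -0.09, -0.34 and -0.14 at ZT2, ZT10 and ZT18 at 30 weeks and 0.36, -0.32 and -0.36 at 12 weeks. In NS mice it was 0.43, -0.03 and 0.24 at 30 weeks and 0.35, -0.09 and 0.14 at 12 weeks. Whether the course itself differed between schedules was tested by the interaction of schedule with time. At 30 weeks 0 members passed (4 at unadjusted p under 0.05; Insig2 had 1.33, limma adjusted p = 0.145), against 1.91% of all genes. At 12 weeks Insig2 alone passed, with a range of the schedule difference of 1.81 (limma adjusted p = 0.048), against 1.89% of all genes, and 10 members had unadjusted p under 0.05. All CJ mice lay below all NS mice in Insig2 at ZT2 and ZT18, and all lay above them at ZT10 (3.68, 4.13 and 4.22 in CJ mice, against 3.20, 3.67 and 3.20 in NS mice). This call was close to the threshold, and in 22 of the 32 fits that left out 1 mouse 0 members passed. For the other members the daily courses of the schedules are not shown to differ.

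The last comparison was between ages. Shifts began at 4 weeks of age, so the older CJ mice had also been shifted for longer. In CJ mice, and in the test of schedule by age, age and length of exposure therefore cannot be told apart. In CJ mice Tm7sf2 was lower at 30 than at 12 weeks (-0.39 ± 0.09, limma adjusted p = 0.0151) and Aacs was higher (0.85 ± 0.22, limma adjusted p = 0.0247), among 5.02% of all genes called. Aacs had 4.66 and 2.78, 5.10, 4.22 and 4.96, and 5.24, 6.08 and 5.66 in CJ mice of 30 weeks, against 2.89 and 4.58, 3.50, 3.66 and 3.69, and 3.95, 4.56 and 4.24 in those of 12 weeks, at ZT2, ZT10 and ZT18. The older mice were all above the younger ones at ZT10 and ZT18 and overlapped at ZT2. The Aacs call was lost in 4 and the Tm7sf2 call in 2 of the 32 fits without 1 mouse, and neither was called without the arrays rich in acinar markers. In NS mice 0 members differed between ages (0 at unadjusted p under 0.05), against 0.904% of all genes, and the changes of the 30 members lay between -0.08 and 0.26. The test of schedule by age, which asks directly whether the schedule difference changed with age, called 0 members (8 at unadjusted p under 0.05) and 0.00865% of all genes. The median member value of that test was -0.21. The larger count at 30 than at 12 weeks is therefore not shown to be a difference between ages in any member.

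Other genes of the pathway were counted from lists. Of 10 genes of the isoprenoid branches to ubiquinone, dolichol and prenylated proteins, 0 passed between schedules at 30 weeks, and 1 was lower at 12 weeks, Pdss2 of ubiquinone synthesis (-0.32 ± 0.09). Of 7 genes of sterol-dependent protein degradation, 0 passed at either age in the means over times. Of 7 genes of sterol storage and release, Soat2, which esterifies cholesterol in hepatocytes, was higher in CJ mice at 30 weeks (0.31 ± 0.06, limma adjusted p = 0.00157), and Npc1, which exports cholesterol from lysosomes, was lower at 12 weeks (-0.25 ± 0.07, limma adjusted p = 0.0458). At single times Npc1 was higher in CJ mice at ZT18 and 30 weeks (0.49 ± 0.12, limma adjusted p = 0.023) and lower at ZT10 and 12 weeks (-0.75 ± 0.12, limma adjusted p = 0.00421), and its schedule by time interaction passed at both ages. At ZT18 Soat2 was higher in CJ mice at both ages, with 0.86 ± 0.09 at 30 weeks (limma adjusted p = 4.57e-05) and 0.71 ± 0.09 at 12 weeks (limma adjusted p = 0.000183), and at ZT10 and 12 weeks it was lower (-0.41 ± 0.09). Rnf145, a ubiquitin ligase of the degradation list, was higher in CJ mice at ZT18 (0.85 ± 0.18 at 30 weeks and 0.68 ± 0.18 at 12 weeks) and lower at ZT10 and 12 weeks (-0.87 ± 0.18, limma adjusted p = 0.0178). At ZT10 and 12 weeks 2 of 3 CJ arrays and 0 of 3 NS arrays were rich in acinar markers. There, calls over all genes went from 412 to 6 with the marker covariates. Npc1, Soat2 and Rnf145 were not followed under the alternatives. Of 17 genes of fatty acid synthesis and SREBP1, 6 were lower and 1 higher at 30 weeks in the means over times, and 8 were lower and 0 higher at 12 weeks. Acacb (-1.08 ± 0.18 and -0.87 ± 0.18), Acss2 (-1.02 ± 0.15 and -0.77 ± 0.15), Scd1 (-0.70 ± 0.17 and -0.91 ± 0.17) and Gpam (-0.68 ± 0.12 and -0.64 ± 0.12) were among those lower at both ages. Srebf1 itself had 0.10 ± 0.15 and -0.01 ± 0.15, and Lpin1, a phosphatidate phosphatase, was the gene that was higher at 30 weeks (0.69 ± 0.19). At ZT2 and 30 weeks 9 of the 17 were lower and 0 higher (Scd1 -2.18 ± 0.37), against 1.37% of all genes called. That CJ pair was the one with high acute phase genes. At ZT18 and 30 weeks 14 of the 17 differences were above 0, and Lpin1 (2.48 ± 0.33) and Elovl6 (1.47 ± 0.36) passed as higher. Schedule by time passed for 8 of the 17 at 30 weeks and 0 at 12 weeks, against 1.91% and 1.89% of all genes.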

How the data were processed

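The authors deposited, for each of the 32 arrays, an Agilent Feature Extraction scan (1-colour, Cy3; software version 11.0.1.1 per the file headers, 9.1 per the submitters' processing notes). The processed-signal column used here is a background-subtracted intensity, per the file headers, and was not scaled between arrays. The authors also deposited normalized log2 values (16795 per array, 15148 probes), used as an alternative only; their normalization and batch removal, named in the series' design, are not described further in the sources used here. All 32 columns matched their own array best (smallest r 0.81).

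Control and outlier spots were left out, spots of a probe were averaged, and values are log2 of the signal minus log2 of the array's 75th percentile, which ran from 127 to 302.2; 0 spots were saturated. A probe was kept if some group had it well above background on every array (30487 probes). RefSeq identifiers gave symbols to 26582 of 55681 probes (assembly GRCm38.p6), and the brightest probe stood for a gene (23109 genes, 14082 with a symbol, 120 with a missing value on some array). The members had 44 probes, 14 members more than 1.

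The 12 group means were fitted by generalised least squares with limma 3.58.1 variance moderation in R 4.3.3, the slide being a random block (8 slides of 4 arrays, correlation 0.25). All 12 groups share 1 error estimate per gene, so calls in different comparisons are not independent. Adjusted p under 0.05 (Benjamini-Hochberg over all genes) was a call in each of 17 comparisons. By rule, levels are given for the members of largest change and for Insig1, Insig2 and Srebf2, and full statistics for the largest called changes (up to 6 per direction or test) and the control genes; levels of Sqle, Fdft1, Sc5d, Aacs, Stard4 and Idi1 were added after their values were seen. The fit was tested on simulated data. The members, lists and rules were chosen with earlier results of these data known. Alternatives were normexp (offset 50; on the median signal, where a mean had been planned), quantile normalization, no filter, the median probe, no slide block, a fixed slide block, a replicate block, marker covariates, the deposited values, no ZT2 mice, each mouse left out, and, added after seeing the data, no arrays with an acinar marker mean above 0. Mouse numbers name separate animals; same-numbered CJ and NS mice did not deviate together (r from -0.43 to 0.22, 2 of 16 over 0.1). The number of arrays limits the precision.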

Additional observations from a re-analysis of the deposited data

Results flagged for a closer look

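Insig2 is listed here because its interaction of schedule with time of day passed in limma at 12 weeks. The range in the CJ minus NS difference was 1.81 (log2, limma adjusted p = 0.048), and this difference was highest at ZT10 and lowest at ZT18. Insig2 was the only member that passed, against 1.89% of all genes. The call was close to the threshold. No member passed in 22 of the 32 fits that left out 1 mouse, nor under several of the processing alternatives.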

How the results depend on the processing

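Over the 42 called changes of members between 2 groups or means, 0 of 1788 values under the alternatives turned the other way, and 279 lost the call. Of the 17 changes at 30 weeks, 11 kept the call without any 1 mouse, and of the 5 at 12 weeks, 3 did. Of the 1788 values, 1344 came from fits that left out 1 mouse, often from a group outside the comparison. The 42 changes were chosen because they passed, so a turn was unlikely from the start. Counts of called members follow. Schedule means at 30 weeks: 10 without ZT2 mice and 6 without the acinar-rich arrays (17 as reported). Schedule means at 12 weeks: 10 with normexp, 8 with quantile normalization, 3 with no block, 12 in the deposited table, 10 without ZT2 mice and 1 without the arrays rich in acinar markers (5). Single times at 30 weeks, summed: 5 with no filter, 6 with no block, 6 with a fixed block, 23 in the deposited table, 2 without acinar-rich arrays (10). Single times at 12 weeks, summed: 13 with normexp, 4 with no filter, 2 with a fixed slide block, 16 in the deposited table, 2 with marker covariates, 1 without acinar-rich arrays (8). NS course at 30 weeks: 9 with normexp, 8 with quantile normalization, 17 in the deposited table, 3 with covariates, 3 without acinar-rich arrays (5). NS course at 12 weeks: 5 with no filter, 4 with a fixed block, 14 in the deposited table, 5 with covariates, 5 without acinar-rich arrays (8). CJ course at 30 weeks: 5 in the deposited table, and 0 with no filter, a replicate block, covariates or no acinar-rich arrays (3). CJ course at 12 weeks: 3 with a fixed block and 1 without acinar-rich arrays (12). Schedule by time at 30 weeks: 1 in the deposited table (0). Schedule by time at 12 weeks: 0 with quantile normalization, no filter, no block, a fixed block, a replicate block, covariates or no acinar-rich arrays (1). CJ mice between ages: 1 with no block, without ZT2 mice or with covariates, 0 without acinar-rich arrays (2). The mouse numbers share only a number; with them as a replicate block the schedule means had 18 members at 30 weeks and 5 at 12 weeks. Calls over all genes, in either direction, moved as well. For the schedule means at 12 weeks they were 1009 as reported, 1377 with normexp and 1223 with quantile normalization. They were 270 with no block, 590 without ZT2 mice and 2115 in the deposited table. The deposited values were fitted without the slide block. The cause of these moves was not tested. No filter tested 37208 genes, and the deposited values covered 12693 genes and 28 members. Leaving out ZT2 mice gives no value for single times, daily courses or schedule by time.

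Leaving out each mouse in turn gave 13 to 19 members at 30 weeks and 3 to 7 at 12 weeks for the schedule means (3 without NS mouse 1 at ZT2 and 12 weeks), and 4 to 14 and 2 to 11 for single times. The lowest single-time counts came without NS mouse 2 at ZT18 and 30 weeks (4) and without NS mouse 1 or mouse 2 at ZT18 and 12 weeks (2). The ranges were 2 to 11 and 4 to 10 for the NS courses, 0 to 3 and 3 to 15 for the CJ courses, 0 to 1 and 0 to 2 for schedule by time, 1 to 3 for ages in CJ mice, 0 to 0 in NS mice, and 0 to 1 for schedule by age. Groups of 2 or 3 mice limit what could be detected at single times.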
